A study of Mus musculus with 12 samples.

Results

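The kainate receptor subunit genes Grik1, Grik2, Grik3, Grik4 and Grik5 and the auxiliary protein genes Neto1 and Neto2 were followed in the hippocampi of 12 mice. These 7 genes were chosen by name, as the complete set of genes for kainate receptor subunits and their Neto partners, and make up 7 of the 24209 genes and 9 of the 32850 RefSeq rows of the deposited counts. Kainate receptors are tetrameric glutamate-gated cation channels. Grik1, Grik2 and Grik3 encode the low-affinity subunits GluK1, GluK2 and GluK3, which can form channels alone, and Grik4 and Grik5 encode the high-affinity subunits GluK4 and GluK5, which need one of the former to reach the surface as a working channel. Neto1 and Neto2 are single-pass membrane proteins with CUB domains that bind the receptor and slow its gating. In the hippocampus these receptors are best known from the mossy fibre synapses that dentate granule cells make on CA3 pyramidal cells, where they act on both sides of the synapse.

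The study asked how blocking a single miRNA in hippocampal neurons changes the transcriptome and behaviour. All 12 animals were male C57BL/6 mice that received an AAV2/5 vector bilaterally, at 3 sites per hemisphere, at an age of 10 weeks, and whose hippocampi were dissected 10 weeks later. In the miR-9 experiment 3 mice carried a vector for GFP with a sponge for miR-9 (GFP-miR-9sp) and 3 carried GFP alone (GFP Ctrl), and in the miR-34 experiment 3 mice carried GFP with a sponge for miR-34 (GFP-miR-34sp) and 3 other mice GFP alone (GFP Ctrl). A sponge is a transcript with imperfect binding sites, here 8, that titrates a miRNA away from its targets. The human synapsin promoter restricts GFP and sponge to neurons, whereas the sequenced RNA came from entire hippocampi, glia and untransduced cells included. In such bulk RNA, fewer cells of a type and less RNA per cell cannot be told apart.

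The mature miRNAs that the sponges were made to bind are shown because their seeds, bases 2 to 8 in capitals, define the sites searched in the receptor genes. miR-34a and miR-34b share 1 seed, and miR-9 has another (RefSeq, GRCm38.p6). miR-34c-5p is the other member of the miR-34 family.
mmu-miR-9-5p: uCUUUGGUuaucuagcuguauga
mmu-miR-34a-5p: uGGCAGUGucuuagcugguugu
mmu-miR-34b-5p: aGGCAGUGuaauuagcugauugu

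Sites of these seeds were present in the 3′ UTRs of Grik3, Grik4, Neto1 and Neto2. For every gene, the longest annotated 3′ UTR (GENCODE M1, mm9) was searched on the transcribed strand for the heptamer that pairs with bases 2 to 8 (ACCAAAG for miR-9, CACTGCC for miR-34), for the same heptamer followed by A (an 8mer, counted once), and for the last 6 bases of the heptamer followed by A (7mer-A1). The stretches that hold the sites of Grik3, Grik4 and Neto2 are shown in the direction of the transcript, with the site in capitals.
Grik3 miR-9 8mer, chr4:125386540-125386547: ctggaagattaACCAAAGAcccaacacaga
Grik3 miR-9 7mer-A1, chr4:125386103-125386109: acaaggaacgtCCAAAGActcagttgacat
Grik3 miR-34 heptamer, chr4:125390308-125390314: cagcccgagggCACTGCCgacatgcccgtt
Grik4 miR-34 7mer-A1, chr9:42326763-42326769: tttgaaagctgACTGCCAgcagttccccct
Neto2 miR-9 heptamer, chr8:88162767-88162773: tgtactttctgACCAAAGtgtgttttctgt
Neto2 miR-9 heptamer, chr8:88161808-88161814: attgaacaaaaACCAAAGgatgtttacatt

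Grik3, with a 3′ UTR of 6082 bases, was the one gene of the 7 with sites for both miRNAs and the one with an 8mer. Neto1 held 1 miR-34 heptamer (chr18:86670392-86670398) in 998 bases. Neto2 held both of its miR-9 heptamers in 3299 bases, and Grik4 its miR-34 7mer-A1 in 2694 bases. Grik1, Grik2 and Grik5, with 3′ UTRs of 299, 1648 and 516 bases, held none of these sites for either miRNA. Among 10736 genes with a 3′ UTR and enough reads in the miR-9 experiment, 4.44% had a miR-9 8mer and 22.7% any of the miR-9 sites, and for 3′ UTRs of 3000 to 7000 bases, the class of Grik3 and Neto2, these shares were 11.7% and 53.2%. For miR-34 the share with any site was 23.4% of 10326 genes, and 51.2% of the 1387 with 3′ UTRs of 3000 to 7000 bases. The 3′ UTRs of Grik4 and Neto1 are shorter than this class, and no share was computed for their lengths. The median 3′ UTR of the 10326 genes had 1199.5 bases, fewer than that of Grik4 and more than that of Neto1. A match describes the letters only, and whether these sites are bound was not measured. The 3′ UTRs are from GENCODE and the counts from RefSeq rows, and whether each counted row holds its site was not checked. For Grik4 the site starts at base 2143 of the 3′ UTR, whereas the counted row has 3488 bases in all, coding bases included. That row may therefore end before the site.

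The counts summed to 17279620 to 24428477 per mouse in the miR-9 experiment and to 11029604 to 16934133 in the miR-34 experiment. Slc17a7, the vesicular glutamate transporter of hippocampal excitatory neurons, stood at 1905 to 2648 CPM (counts per 1000000 reads) in every mouse and Prox1, a marker of dentate granule cells, at 76.7 to 125.7. The neuronal marker Rbfox3, whose reads were counted on several RefSeq rows, was at or near 0. The labels call the samples hippocampal neurons, but glial markers were also present, with Gfap at 283.0 to 385.7, Mbp at 81.1 to 105.0 and Cx3cr1 at 90.4 to 111.0 CPM. Ttr, the main transcript of the choroid plexus, ranged from 16.1 to 2176 CPM across mice. All CPM were scaled by the TMM method within each experiment, so a level set across experiments mixes the experiments' preparation and depth with the mice.

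Among the 7 genes, Grik5 had by far the most counted reads and Grik1 and Grik2 had almost none. In CPM per kb of transcript, Grik5 stood at 108.2 to 116.8 in the 6 mice of the miR-9 experiment and at 90.3 to 98.8 in the miR-34 experiment. Its mean of 113.7 in the miR-9 experiment lay above that of 95.1% of the 11144 genes that have 1 RefSeq row and passed the read limit. Neto1 followed at 57.6 to 75.4 and 51.9 to 65.8, then Grik4 at 23.7 to 31.1 and 25.4 to 31.6. Neto2 reached 23.5 to 25.1 and 19.1 to 22.05, and Grik3 14.9 to 20.1 and 11.04 to 12.9. This order, Grik5, Neto1, Grik4, Neto2, Grik3, held in 6 of 6 mice of each experiment. The ranges of neighbours in it did not overlap, except those of Grik4 and Neto2 in the miR-9 experiment, whose means differed by 1.12-fold.

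**Figure D1:**
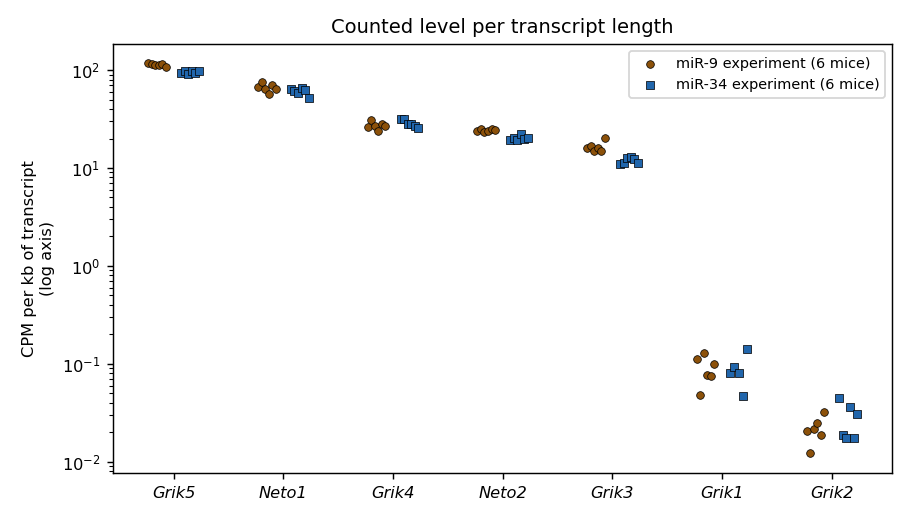
CPM per kb of transcript (log axis) for each of the 7 genes, each point being 1 mouse of the miR-9 experiment (circles) or the miR-34 experiment (squares). Grik5 lies at 90.3 to 116.8 and Grik3 at 11.04 to 20.1, whereas Grik1 and Grik2 lie below 0.142, and 1 mouse of the miR-34 experiment had 0 reads of Grik1 and is not drawn.

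Grik1 and Grik2, the low-affinity subunits with more than 1 RefSeq row, were close to unmeasured in these counts. The longer Grik1 row (NM_146072, 3660 bases) held 62 reads over the 12 mice, with 0 to 9 per mouse, and the shorter (NM_010348, 3573 bases) held 0 in every mouse. The longer Grik2 row (NM_010349, 4872 bases) held 24 reads, with 1 to 3 per mouse, and the shorter (NM_001111268, 4785 bases) again 0. An exact Clopper-Pearson interval (95%) allows the shorter row up to 5.78% of the Grik1 reads and 14.2% of the Grik2 reads, and the limit of 3 reads allows 4.84% and 12.5%. Such intervals cover counting error only. They set no limit on the share of the shorter transcript in the RNA, since how reads common to both rows were counted is not given. GluK2 is among the principal kainate receptor subunits of CA3 pyramidal cells and dentate granule cells, and its few counted reads are not read here as absence of the RNA.

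The same shortfall was found across genes with several RefSeq rows. Genes with 1 row, 19472 in number, held 96.0% of all reads, the 2669 genes with 2 rows 2.75% and the 2068 genes with 3 or more rows 1.202%. A mean above 10 reads per mouse was reached by 57.3% of the genes with 1 row and 38.0% of those with 2. Of the 1539 genes with 2 rows of unequal length and at least 20 reads, 49.3% had all reads on the longer row and 1.04% all on the shorter. How reads shared by 2 rows were counted is not given in the sources used here.

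In both genes the rows differ in length by 87 bases. GENCODE M1 holds an exon of 87 bases in Grik1 (exon 15 of 16 in its transcript, chr16:87897054-87897140, minus strand), which a second annotated transcript lacks with no other difference, and an exon of the same length in Grik2 (exon 16 of 17, chr10:48824785-48824871, minus strand). The Grik1 exon is coding throughout and is shown as the kind of short stretch by which 2 rows can differ, leaving nearly all 50-base reads common to both.
Grik1 exon 15: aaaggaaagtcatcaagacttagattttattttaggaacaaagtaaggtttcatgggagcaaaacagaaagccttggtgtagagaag

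The other members each had 1 RefSeq row, Grik3 NM_001081097 (8842 bases), Grik4 NM_175481 (3488), Grik5 NM_008168 (3838), Neto1 NM_144946 (3531) and Neto2 NM_001081324 (5646), so row and gene hold the same reads. On mm9, Grik3 lies at chr4:125167944-125391417 (plus strand), Grik4 at chr9:42326218-42752576 (minus), Grik5 at chr7:25794872-25857388 (minus), Neto1 at chr18:86564344-86671289 (plus) and Neto2 at chr8:88161136-88224653 (minus). Grik1 lies at chr16:87896441-88289947 and Grik2 at chr10:48819266-49508572, both on the minus strand. Only these 5 of the 7 genes, Grik3, Grik4, Grik5, Neto1 and Neto2, passed the limit of a mean above 10 scaled reads and were tested, in both experiments.

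After miR-9sp injection none of the 5 tested genes passed the test. Fold changes of sponge over GFP Ctrl lay between 0.938 for Grik3 and 1.075 for Neto1, with adjusted p of 0.970 to 0.978 in edgeR, and the groups of mice overlapped for every gene. The median log2 fold change of the 5 was 0.03, against -0.00 over all 13045 genes tested. With the same test 0% of all genes were called (0 of 13045 by edgeR, 2 by DESeq2), while 4.73% had an unadjusted p under 0.05 and 10.2% separated the groups of mice.

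Grik3, which carries the miR-9 8mer, was counted with 2513 to 3457 reads per mouse. It stood at 141.7, 149.0 and 132.0 CPM in the GFP-miR-9sp mice 17, 23 and 9 and at 140.7, 132.4 and 177.8 in the GFP Ctrl mice 16, 2 and 8. GFP Ctrl mouse 8 was the highest of the 6, and the remaining GFP Ctrl mice lay within the range of the sponge mice. The fold change was 0.938 (95% interval 0.810 to 1.09; log2 -0.09, SE 0.10; edgeR adjusted p = 0.970), and without GFP Ctrl mouse 8 the log2 fold change turned to 0.04. The spread among the 3 GFP Ctrl mice (CV 16.1%) far exceeded that from counting (1.76%).

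The high-affinity subunits showed no change past the spread between mice. Grik4 stood at 91.0, 108.5 and 93.5 CPM in the GFP-miR-9sp mice and at 82.8, 98.7 and 93.2 in GFP Ctrl. Sponge mouse 23 was the highest and GFP Ctrl mouse 16 the lowest, with the other mice between them in mixed order (1.07-fold, 95% interval 0.947 to 1.201; edgeR adjusted p = 0.970). Grik5 varied little, at 448.2, 445.9 and 428.2 in the sponge mice and 435.3, 445.7 and 415.2 in GFP Ctrl. Its CV within groups was 2.48% and 3.58%, and its fold change of 1.02 was within this spread (log2 0.03, SE 0.04; edgeR adjusted p = 0.973).

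Among the auxiliary subunits, Neto1, which binds GluK2-containing receptors at mossy fibre synapses, stood at 236.4, 266.4 and 225.1 CPM in the sponge mice and at 203.3, 245.9 and 227.9 in GFP Ctrl. As with Grik4, sponge mouse 23 was the highest and GFP Ctrl mouse 16 the lowest, and the groups overlapped (1.075-fold, 95% interval 0.955 to 1.21; edgeR adjusted p = 0.970). Neto2, with both of its miR-9 heptamers, stood at 133.5, 141.5 and 132.5 against 133.5, 141.7 and 139.1, and the sponge values lay within or just below the GFP Ctrl range (0.984-fold; log2 -0.02, SE 0.04; edgeR adjusted p = 0.978).

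**Figure D2:**
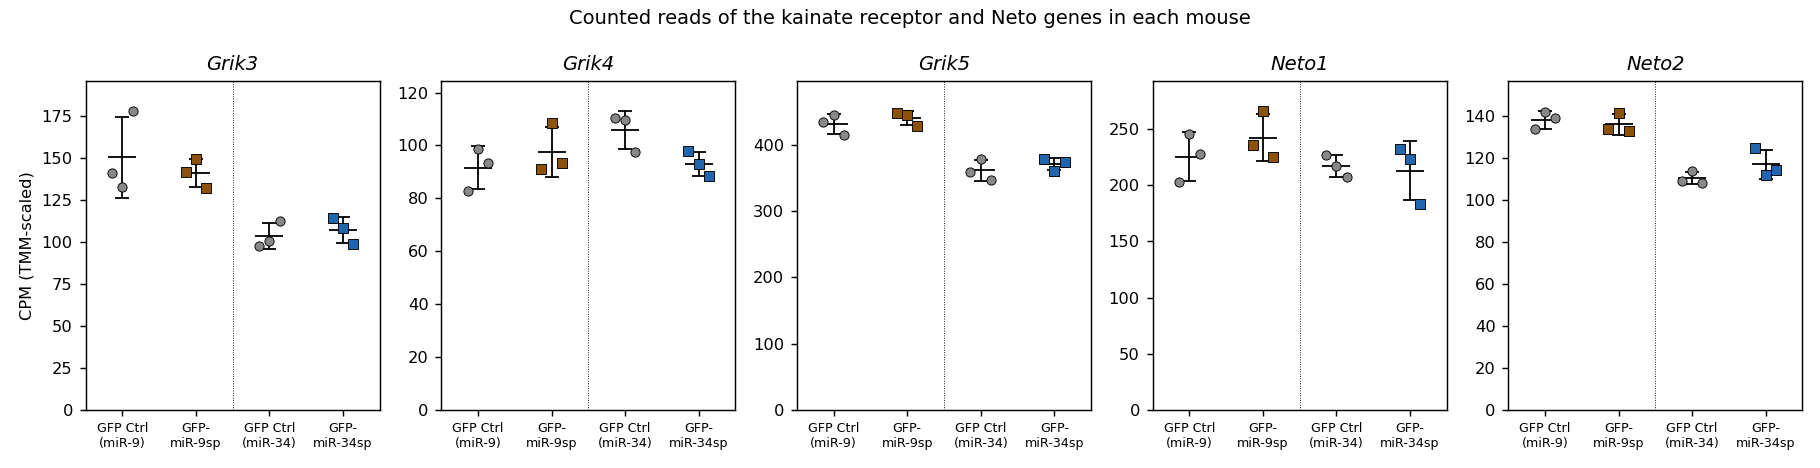
TMM-scaled CPM (axes from 0) of Grik3, Grik4, Grik5, Neto1 and Neto2, each point being 1 mouse, with the mean (line) and SD (bars) of the 3 mice per group; GFP Ctrl mice are grey circles, GFP-miR-9sp brown squares and GFP-miR-34sp blue squares. Groups overlap for every gene in both experiments, most narrowly for Grik4 in the miR-34 experiment, where GFP Ctrl mice lie at 97.5 to 110.2 and sponge mice at 88.5 to 97.7.

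After miR-34sp injection the 5 genes again gave no call. Grik4 was lower by the largest step, 0.880-fold, and the other 4 lay between 0.981-fold for Neto1 and 1.06-fold for Neto2. The adjusted p in edgeR ranged from 0.565 to 0.974, and none of the 5 genes separated the groups, where 11.6% of all 12492 genes tested did. Across those genes 0.064% were called (8 of 12492) and 6.43% had an unadjusted p under 0.05, as did 1 of the 5 members, Grik4. Counted on RefSeq rows instead, 0% of 13439 rows in the miR-9 experiment and 0.0313% of 12787 in the miR-34 experiment were called, and none of the 5 tested rows of the members was among them.

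Grik4, whose longest annotated 3′ UTR holds a miR-34 7mer-A1 that the counted row may lack, was counted with 1079 to 1648 reads per mouse. It stood at 110.2, 109.8 and 97.5 CPM in the GFP Ctrl mice 10, 4 and 8 and at 97.7, 92.9 and 88.5 in the GFP-miR-34sp mice 13, 18 and 3. The lowest GFP Ctrl mouse and the highest sponge mouse differed by less than 1 on this scale, and the other sponge mice lay below all GFP Ctrl mice. The means were 105.8 ± 7.25 and 93.1 ± 4.63 (SD, n = 3 each), a fold change of 0.880 (95% interval 0.806 to 0.961; log2 -0.18, SE 0.06). The unadjusted edgeR p was 0.0082 and the adjusted p 0.565, and Grik4 ranked 178 of 12492 genes by p. Leaving out any single mouse gave a log2 fold change of -0.24 to -0.15 and an adjusted edgeR p of 0.338 to 0.848.

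The other receptor genes stayed within the spread between mice. Grik3, with its miR-34 heptamer, stood at 97.7, 100.6 and 112.2 CPM in GFP Ctrl and at 114.1, 108.1 and 98.6 in the sponge mice, 1.03-fold (log2 0.05, SE 0.06). Grik5 stood at 359.8, 379.1 and 346.6 against 378.6, 361.0 and 374.3, 1.03-fold (log2 0.04, SE 0.04). The highest and the lowest Grik5 value both came from GFP Ctrl mice.

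Of the auxiliary genes, Neto1, with its miR-34 heptamer, stood at 227.3, 217.0 and 207.1 CPM in GFP Ctrl and at 232.4, 223.5 and 183.3 in the sponge mice. Sponge mice thus held both the highest and the lowest value, and the fold change was 0.981 (log2 -0.03, SE 0.07). Neto2 stood at 109.1, 113.5 and 108.0 against 124.5, 111.6 and 114.3, with 2 of 3 sponge mice above all GFP Ctrl mice (1.06-fold; log2 0.09, SE 0.05; edgeR adjusted p = 0.845).

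**Figure D3:**
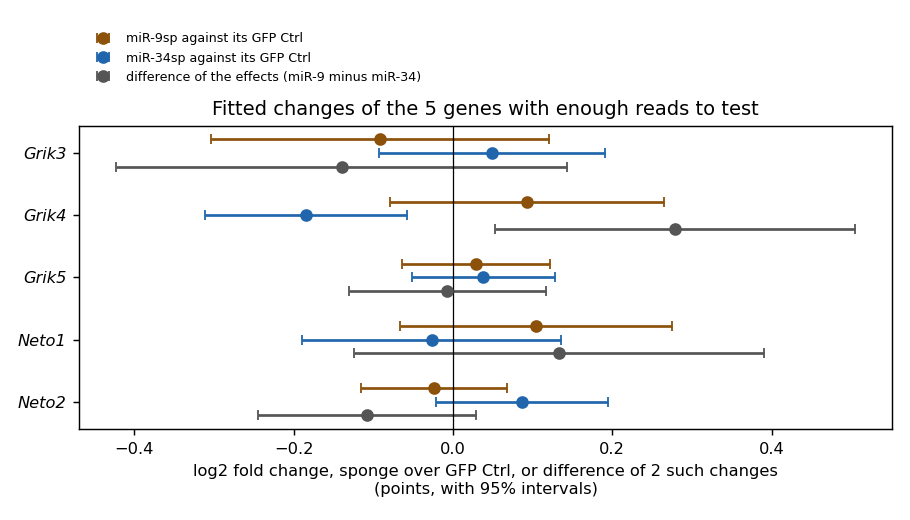
Log2 fold changes of sponge over GFP Ctrl in the miR-9 experiment (brown) and the miR-34 experiment (blue), and the difference of these effects (grey). The 5 tested genes are shown, with 95% intervals computed from the edgeR F statistic. Intervals include 0 except for Grik4 in the miR-34 experiment (-0.18) and for the difference in Grik4 (0.28); with adjustment over all genes neither passes.

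The effects of the sponges on each gene were compared in 1 model of all 12 mice. For Grik4, higher by 0.09 after miR-9sp and lower by 0.18 after miR-34sp on the log2 scale, the difference was 0.28 (SE 0.11). The unadjusted edgeR p was 0.0191 and the adjusted p 0.767, and 0% of the 12835 genes tested were called (5 genes by DESeq2) while 6.1% had an unadjusted p under 0.05. The differences were -0.14 for Grik3, -0.01 for Grik5, 0.13 for Neto1 and -0.11 for Neto2. A different response to the sponges was therefore not shown for any member.

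Set side by side between experiments, GFP Ctrl mice had 150.3 ± 24.2 CPM of Grik3 in the miR-9 experiment and 103.5 ± 7.71 in the miR-34 experiment. Grik5 was at 432.1 ± 15.5 and 361.8 ± 16.3, and Neto2 at 138.1 ± 4.20 and 110.2 ± 2.92. Neto1 was at 225.7 ± 21.4 and 217.2 ± 10.1, whereas Grik4 was at 91.6 ± 8.10 and 105.8 ± 7.25 (SD, n = 3 each). These mice share vector and strain, but experiment, preparation and depth differ between them and cannot be told apart, and no test was made.

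The makeup of the counted receptor pool was expressed as each subunit's share of the summed Grik level per kb. In the miR-34 experiment Grik4 held 23.1%, 22.2% and 21.3% in GFP Ctrl and 20.1%, 20.1% and 18.9% in the sponge mice. All sponge mice lay below all GFP Ctrl mice, and the means were 22.2% ± 0.915 and 19.7% ± 0.662 (SD, n = 3 each). The two-sided exact permutation test gave p = 0.1, the smallest that 3 mice against 3 allow, and 0.4 after Benjamini-Hochberg adjustment over 8 shares. Shares sum to a whole, and Grik5 held 69.1% ± 0.556 in GFP Ctrl and 71.3% ± 1.15 in the sponge mice (exact permutation p = 0.1, adjusted 0.4). Without division by length the Grik4 share differed by -2.24 points and still separated the groups, while the Grik5 shares then overlapped (exact permutation p = 0.3). Grik3 held 8.60% ± 0.937 and 8.91% ± 0.526.

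In the miR-9 experiment the shares overlapped throughout. Grik4 held 16.8% ± 1.18 in GFP Ctrl and 17.6% ± 1.27 after miR-9sp, Grik5 72.2% ± 2.23 and 72.3% ± 1.38, and Grik3 10.9% ± 1.84 and 10.0% ± 0.274 (SD, n = 3 each). Of the Neto level per kb, Neto1 held 72.3% ± 1.32 and 74.0% ± 0.988 in the miR-9 experiment and 75.9% ± 0.884 and 74.4% ± 2.19 in the miR-34 experiment (exact permutation p = 0.2 and 0.4). Neto1 exceeded Neto2 per kb by 2.44-fold to 3.33-fold in the 12 mice, and Grik5 exceeded Grik4 by 2.97-fold to 4.78-fold. Grik1 and Grik2 together made up at most 0.128% of the Grik level in any mouse, with the limit on their counting given above.

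**Figure D4:**
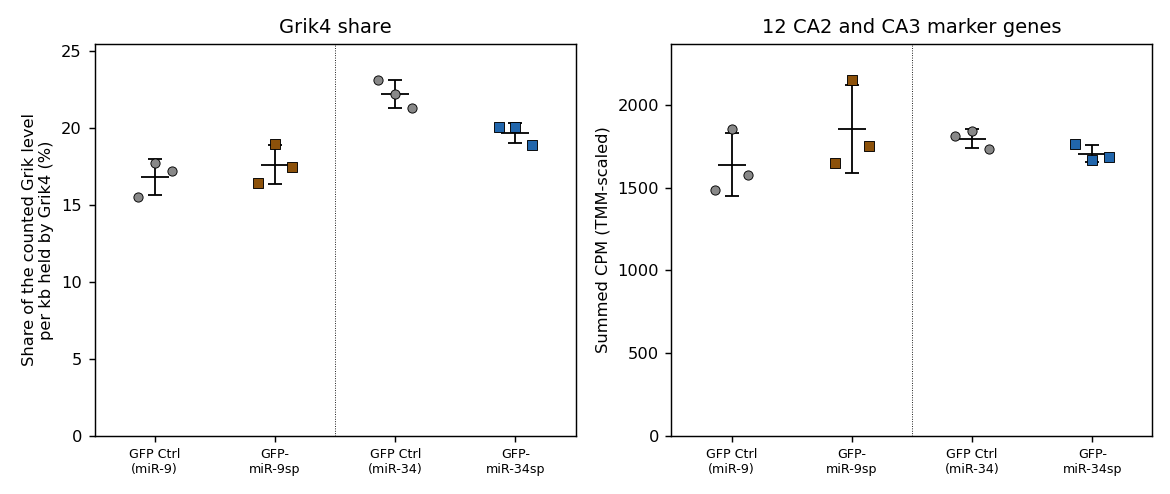
Left, the share (%) of the summed Grik level per kb held by Grik4, and right, the summed TMM-scaled CPM of 12 marker genes of CA2 and CA3 pyramidal cells; points are mice, with mean and SD of 3 mice per group, and both axes start at 0. In the miR-34 experiment the Grik4 share is 21.3% to 23.1% in GFP Ctrl and 18.9% to 20.1% in sponge mice, and the marker sums are 1731 to 1842 and 1666 to 1765.

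Grik4 RNA is enriched in CA3, and markers of the cell types and neighbouring tissues in the dissection were therefore read beside it. In the miR-34 experiment 7 of the 8 tested markers of CA2 and CA3 pyramidal cells were lower after miR-34sp and 1 was higher, none called, with a median log2 fold change of -0.05 against -0.00 over all genes. For 2 of the 8 all sponge mice lay below all GFP Ctrl mice and for 0 above, where 11.6% of all genes separated the groups. Sums over the 12 listed markers were 1814, 1842 and 1731 CPM in the GFP Ctrl mice 10, 4 and 8 and 1765, 1666 and 1685 in the sponge mice 13, 18 and 3, so these sums overlapped. In the miR-9 experiment 6 of 9 were higher and 3 lower, none called (median log2 0.06), and the sums were 1486, 1851 and 1575 in the GFP Ctrl mice 16, 2 and 8 and 1649, 2153 and 1753 in the sponge mice 17, 23 and 9. Mouse 23 was highest and mouse 16 lowest in these sums, as they were for Grik4 and Neto1. The part of these markers in the Grik4 values was not tested.

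Of the 13 marker lists, choroid plexus after miR-34sp was the one with called genes. Choroid plexus markers were lower after miR-34sp in 11 of 11 tested genes, 5 of them called by edgeR, with sums of 663.8 to 2432 CPM in GFP Ctrl and 76.9 to 159.4 in the sponge mice. In the miR-9 experiment these sums were 130.8 to 760.9 and 58.7 to 907.2, and overlapped. General markers of hippocampal neurons were higher after miR-9sp in 9 of 9 tested genes, none called, with sums of 5230 to 5713 against 5700 to 6172, beside the higher mean of Neto1. After miR-34sp 4 of these 9 were higher and 5 lower. Markers of dentate granule cells, the source of the mossy fibres, were higher in 9 of 10 tested genes after miR-9sp (median log2 0.18, sums of 691.9 to 911.7 against 736.5 to 1001) and in 8 of 10 after miR-34sp (median log2 0.13, sums of 752.3 to 943.8 against 875.6 to 984.4). Striatal markers were lower in 7 of 10 after each sponge, with medians of -0.13 and -0.27, and after miR-34sp their sums were 146.1 to 216.4 in GFP Ctrl and 127.5 to 147.3 in the sponge mice. Markers of thalamus and habenula were lower in 8 of 10 after miR-9sp (median log2 -0.25) and in 6 of 10 after miR-34sp (-0.09).

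Among glial and vascular lists, astrocyte markers were lower in 5 of 9 tested genes after miR-9sp and in 9 of 9 after miR-34sp, with a median log2 of -0.05 in the latter. Microglia markers were lower in 9 of 11 after miR-9sp, where their sums did not overlap (754.2 to 777.9 in GFP Ctrl, 714.6 to 746.0 in the sponge mice), and in 6 of 11 after miR-34sp. None of the 11 was called after miR-9sp. All sponge mice lay below all GFP Ctrl mice for 1 of them and above for 0, where 10.2% of all genes separated the groups. Oligodendrocyte markers were lower in 10 of 11 after miR-9sp (median log2 -0.11) and higher in 10 of 11 after miR-34sp (0.06). Endothelial markers were higher in 6 of 7 after miR-9sp (0.05) and lower in 6 of 7 after miR-34sp (-0.12). The remaining lists, of CA1 pyramidal cells, interneurons and oligodendrocyte precursors, had medians of -0.01 to 0.07, and their sums overlapped in both experiments. The part of these lists in the values of the 5 genes was not tested.

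Genes known to bind kainate receptors or to act with them, such as scaffolds, kinases and ligands, gave no call either. Of 24 such genes 18 were tested in each experiment. After miR-9sp 11 were higher and 7 lower (median log2 0.03), and after miR-34sp 7 were higher and 11 lower (median log2 -0.01). All sponge mice lay above all GFP Ctrl mice for 1 of the 18 after miR-9sp, and all below for 0. After miR-34sp they lay all above for 1 and all below for 1. Over all genes tested, 10.2% and 11.6% separated the groups. Prkca, a protein kinase C that phosphorylates kainate receptor subunits, had the smallest p in both. It stood at 600.9 ± 35.4 CPM in GFP Ctrl and 710.9 ± 100.2 after miR-9sp, with all sponge mice above (log2 0.24, SE 0.09; edgeR adjusted p = 0.970), and at 693.8 ± 40.1 and 630.2 ± 19.6 in the miR-34 experiment, with all sponge mice below (log2 -0.14, SE 0.05; edgeR adjusted p = 0.596).

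The partners named next, by p, did not separate the groups, and the partner with all miR-34sp mice above is not among them. After miR-9sp these were Camk2a, the calcium-dependent kinase of the postsynaptic density (log2 0.15), Slc12a5, the neuronal chloride transporter KCC2 (log2 0.05), and Klhl24, a protein that binds GluK2 (log2 -0.06). After miR-34sp they were Ctnnb1, encoding beta-catenin (log2 -0.54, at 1.87 and 1.32 CPM on 2 RefSeq rows), Klhl17, an actin-binding partner of GluK2 (log2 0.08), and C1ql3, a synaptic ligand released from mossy fibres (log2 0.11). Their adjusted edgeR p ranged from 0.845 to 0.970.

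As a description of how the members varied from mouse to mouse, log2 levels were centred on each group's mean and compared with those of 8759 genes over the 12 mice, which leaves 8 degrees of freedom. The highest Pearson r of Neto1 was with Slc17a7 (0.96) and Lynx1 (0.95), and that of Grik4 with St6galnac5 (0.98) and Abhd12 (0.97). Grik3 was most like Ap5m1 (0.91) and Etv5 (0.91), Grik5 most like Gtf2e1 (0.97) and Luc7l (0.95), and Neto2 most like Cep68 (0.98) and Rab8b (0.95). These are the highest of 8759 values each, the lowest being -0.90 to -0.95, and within a mouse all genes share its library, depth and dissection.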

How the data were processed

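RNA from the hippocampi of 12 mice was sequenced by the authors as 50 bp single end reads after poly-A enrichment, trimmed and mapped, to mm9 by the methods and with STAR and mm10 by the submitters' processing notes. The deposited values are raw counts of reads per RefSeq row, and the authors give each row's length as another column. The counting rule and tool versions are not given in the sources used here. The word totRNA stands in the column names of the miR-9 experiment alone.

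Rows were joined to gene symbols (98.7%) and summed per gene. The 3 GFP Ctrl mice whose titles name no experiment were placed with the GFP-miR-9sp mice, since the methods describe 3 controls per experiment. Genes with a mean above 10 scaled reads were tested in edgeR 4.0.16 (R 4.3.3; TMM, quasi-likelihood test, Benjamini-Hochberg, adjusted p limit 0.05), within each experiment. The biological coefficient of variation was 0.0613 (miR-9) and 0.0516 (miR-34). Levels per kb are TMM-scaled counts divided by row length. No mouse pair shared counts in more than 2.35% of rows. DESeq2 1.42.0, other size factors, no filter, 1 model of 12 mice, the study's unpaired two-sided criterion, other lengths and leaving out each mouse were alternatives. Code was tested on simulated data, with pandas 2.3.3, scipy 1.17.1, Python 3.11.15 and, for the plots, matplotlib 3.10.9.

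The members and gene lists were chosen with earlier results of these data known. The text names all 7 members, of the partner list the 4 genes per experiment with the smallest p and any called, and the 2 genes most like each tested member in group-centred log2 level. Each mouse is 1 sample. The mice given a miR-124 sponge were not analysed here.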

Additional observations from a re-analysis of the deposited data

How the results depend on the processing

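None of the 5 tested members was called under any alternative. Their 10 fold changes kept their direction in all 60 values that used all mice and turned in 4 of 60 with 1 mouse left out. In the miR-9 experiment Grik3 ranged from -0.18 to 0.044 (log2) with 1 mouse left out, and in the miR-34 experiment Grik3 from -0.0025 to 0.11 (lowest without GFP-miR-34sp mouse 13) and Neto1 from -0.10 to 0.071 (above 0 without GFP Ctrl mouse 10 or GFP-miR-34sp mouse 3). The difference for Grik5 ranged from -0.042 to 0.023. Grik4 after miR-34sp kept -0.18 under all other settings with all mice, with an adjusted p of 0.196 to 0.849 by edgeR or DESeq2. With 1 mouse left out, the share differences ranged in the miR-9 experiment from -1.65 to 0.134 points for Grik3, 0.119 to 1.39 for Grik4, -1.13 to 1.03 for Grik5 and 1.07 to 2.38 for Neto1, and in the miR-34 experiment from 0.0242 to 0.850 for Grik3, -3.02 to -2.10 for Grik4, 1.57 to 2.59 for Grik5 and -2.47 to -0.332 for Neto1.

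Counts over all genes moved more, and the cause was not tested. The study's criterion of an unadjusted p and a fold was recomputed here, and its counts below differ from those the paper reports. For the miR-9 experiment, with 0 genes and 0 rows called, this criterion gave 188 genes and 201 rows. DESeq2 gave 2 and 2, no filter 2 and 2, and leaving out 1 mouse 0 to 1. For the miR-34 experiment, with 8 genes and 4 rows called, the criterion gave 249 and 258, DESeq2 36 and 37, RLE size factors 4 and 8, no filter 81 and 140, 1 model of 12 mice 0 and 0, total counts 4 genes, and leaving out 1 mouse 0 to 57 genes and 0 to 60 rows, 57 genes being called without GFP Ctrl mouse 10. For the difference of the sponge effects, with 0 called, DESeq2 gave 5, no filter 4 and leaving out 1 mouse 0 to 1. No paired analysis was possible because sponge and GFP Ctrl mice of an experiment share no replicate number. Grik1 and Grik2 were below the read limit, so the sponges' effect on them was not detectable at this depth and counting.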
